A study of Mus musculus with 12 samples.

Results

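Mouse embryonic stem cells (ES cells, the cultured counterpart of the early epiblast) were compared between day 4 and day 0 of a time course, with 3 libraries a day. The comparison covers every gene with enough reads to be tested, which was 16468 of the 55335 genes in the deposited count table; 22866 genes had no count in any library. The other 6 of the 12 libraries, from days 2 and 6, entered the same fit and were used to place day 4 between its neighbours. Both groups are polyadenylated RNA from the line labelled mESC, for which no mutation, transgene, strain or clone is named. One growth protocol is given for all days: ES cell medium with KnockOut Serum Replacement, LIF (leukemia inhibitory factor, a cytokine that sustains ES cells), and gelatin-coated plates with irradiated MEFs (mouse embryonic fibroblasts, used as feeder cells). The labels set the groups apart by day alone. They name no change made at day 0 and no separate cultures for the replicates. A p-value here sets the difference between days against the spread of libraries within a day, estimated from all 4 days together. That spread may therefore be technical only.

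ES cells keep themselves undifferentiated through a set of transcription factors, with Pou5f1 (Oct4), Sox2 and Nanog at the centre, and through LIF, which acts on STAT3. When this network gives way, cells turn towards epiblast, germ layer or extraembryonic fates, each with its own regulators, adhesion molecules and matrix. Retinoic acid, a derivative of vitamin A, is one of the signals known to drive ES cells out of this state: retinaldehyde dehydrogenases make it, CYP26 enzymes break it down, and heterodimers of RAR and RXR receptors bind direct repeats of a short half-site in DNA. Hox genes, which give cells their position along the body axis, are among its best known targets.

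The libraries held 8083420 to 9483951 counts at day 0 and 6945900 to 10160416 at day 4, of which mitochondrially encoded genes took 1.58 to 1.63% and 2.37 to 2.54%. The closing section gives a fit without these genes, and the part of this difference in the results was not otherwise tested. Levels are given as CPM, the count for each 1000000 counts of a library's total scaled by its TMM factor, and as mean ± SD of 3 libraries; they are not corrected for gene length, so levels are compared between days and not between genes. A gene is said to have risen or fallen where edgeR's quasi-likelihood test gave a Benjamini-Hochberg adjusted p under 0.05 over all genes tested, two-sided, and a fold change is the fitted one. The labelled cell type was checked on its defining genes, which at day 0 were present, with Pou5f1 at 1465 ± 43.8 CPM, Sox2 at 715 ± 11.1 CPM and Nanog at 275 ± 3.13 CPM. At day 4, under the same label, they stood at 351 ± 10.3, 125 ± 1.38 and 22.1 ± 1.83 CPM. In bulk RNA, fewer cells of a type and less RNA per cell cannot be told apart, for these or any genes below.

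Promoter sequence is shown first for 3 genes that changed and whose windows held a repeat or composite motif searched for; most of the genes looked up had none. Rarb, a retinoic acid receptor gene, and Cyp26a1, which encodes an enzyme that degrades retinoic acid, rose 192-fold and 403-fold, and Nanog fell 12.3-fold. The stretches come from RefSeq promoter windows (build GRCm38.p6, 250 bases before to 50 after the start) and are read 5′ to 3′ on the strand of the gene. They take up to 60 bases on each side of the match, and none runs past the last base before the start site. Capitals mark a direct repeat of 2 half-sites (each of them AGGTCA or AGTTCA or GGGTCA or GGTTCA, with 1, 2 or 5 bases between them) for Rarb and Cyp26a1, and an octamer and SOX composite (TTTGCAT followed after 1 base by ACAA) for Nanog. Both strands were searched.
Rarb (chr14:16575477-16575589, minus strand): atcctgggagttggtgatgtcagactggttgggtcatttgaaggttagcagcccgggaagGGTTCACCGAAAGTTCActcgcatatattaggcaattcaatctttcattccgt
Cyp26a1 (chr19:37697716-37697807, plus strand): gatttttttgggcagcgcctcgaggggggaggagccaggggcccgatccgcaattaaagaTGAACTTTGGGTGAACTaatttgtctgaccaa
Nanog (chr6:122707354-122707485, plus strand): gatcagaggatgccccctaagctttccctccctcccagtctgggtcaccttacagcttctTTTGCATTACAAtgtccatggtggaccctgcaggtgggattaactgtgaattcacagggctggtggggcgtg

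In Rarb the match starts 53 bases before the start site on the gene's strand, and in Cyp26a1 it starts 32 bases before it on the opposite strand; both have 5 bases between half-sites. Nanog has 2 windows from 2 start sites, and the same match lies 75 bases before one and 151 before the other. Neither motif was found for Cyp26b1, Stra6, Nr2f2, Nr2f1, Stra8, Hoxb1, Hoxb4, Fgf4, Tdgf1, Utf1 or Pou5f1, and Zfp42 held the octamer alone. Such matches were rare. The direct repeat was found in 11 of 2347 windows of genes that rose at least 2-fold (0.469%) and 7 of 1825 windows of genes that fell at least 2-fold (0.384%), against 53 of 14562 windows of all genes tested (0.364%) and 193 of all 32851 windows (0.588%). The composite was found in 4 windows of fallen genes (0.219%), which belong to Nanog, Nrarp and Pipox, in 2 of risen genes (0.0852%), in 8 of tested genes (0.0549%) and in 12 of all windows (0.0365%). The octamer alone (ATGCAAAT), which shares 7 bases with the composite on the other strand, was in 2.03% of fallen, 1.83% of risen, 1.37% of tested and 1.74% of all windows. A window was held for 11394 of 16423 tested genes with a unique symbol, and a match describes the letters there, not a site in use.

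Most of the genes tested differed between the days. At day 4, 12119 genes (73.6%) had changed, with 6170 higher (37.5%) and 5949 lower (36.1%). Changes of at least 2-fold were found for 2719 higher (16.5%) and 2151 lower genes (13.1%). Among changes of 16-fold or more, 367 genes rose and 105 fell, whereas between 2-fold and 4-fold 1421 rose and 1365 fell. The levels of the 3 day 4 libraries lay wholly above or wholly below those of day 0 for 12385 genes (75.2%). Protein-coding genes split into 5561 higher and 5234 lower of 14179 tested, and pseudogenes into 251 higher and 419 lower of 1156, where reads shared with the parent gene make single values uncertain. These shares are the background against which each gene group below is read. The groups and their members were chosen with earlier results of these data known, so their counts are descriptions.

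**Figure D1:**
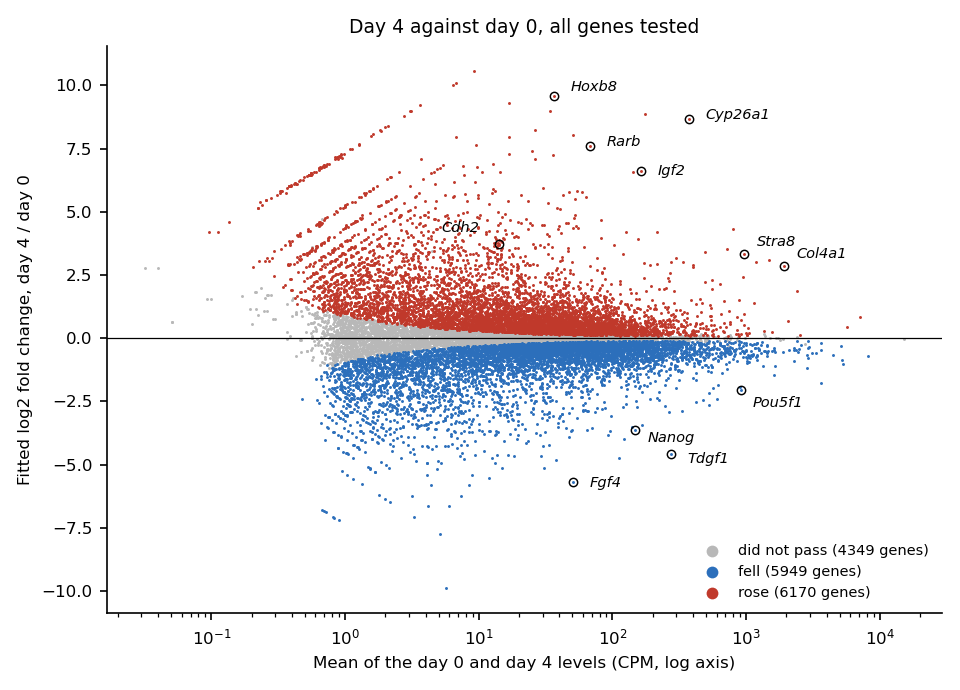
Fitted log2 fold change of day 4 over day 0 against the mean level of both days (CPM, log axis), 1 point per gene tested, coloured by whether the gene rose (6170), fell (5949) or did not pass. Named genes are ringed, Cyp26a1 and Hoxb8 at the top and Fgf4 at the bottom; the slanted lines at the left are genes with very few counts at 1 of the days, whose fitted values depend on the prior count.

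The 12 largest rises among eligible genes reaching 50 CPM were those of Hoxb8, Hoxb6, Cyp26b1, Cyp26a1, Ptn, Gpr50, Rarb, Nr2f2, Havcr1, Igf2, Stra6 and Timd2. Of the 12, 5 belong to the handling or reading of retinoids: the degrading enzymes Cyp26a1 and Cyp26b1, the receptor Rarb, the orphan receptor Nr2f2 (COUP-TFII), and Stra6, the membrane receptor through which cells take up retinol. Cyp26a1 (ENSMUSG00000024987.6, chromosome 19, 37697798 to 37701536, GENCODE M21) was at 2.48, 1.31 and 1.64 CPM in the 3 day 0 libraries and at 751, 757 and 733 CPM at day 4, a log2 difference of 8.65 ± 0.09 (adjusted p = 6.76e-43). Cyp26b1 went from 0.564, 1.18 and 0.505 CPM to 361, 341 and 348 CPM, a rise of 467-fold (log2 8.87 ± 0.11, adjusted p = 2.72e-40). Rarb (chromosome 14, 16430839 to 16819156) went from 1.13, 0.262 and 0.632 CPM to 137, 138 and 133 CPM. Day 0 libraries were near the limit of counting for all 3 genes, and every day 4 library lay far above them. Hoxb8 had 2 counts over the 3 day 0 libraries and 2036 at day 4, a CPM ratio of 893 (95% counting interval 247 to 7377). That interval, like others of its kind here, covers counting error only.

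The other large rises had different roles. Ptn, which encodes pleiotrophin, a heparin-binding growth factor of developing nerve and mesenchyme, rose 301-fold, from 0.113, 0.131 and 0.253 CPM to 52.7, 54.1 and 51.9 CPM. Igf2, the fetal insulin-like growth factor gene (chromosome 7, 142650766 to 142666816), stood at 3.38, 2.88 and 3.41 CPM and then at 309.7, 328 and 331 CPM. Havcr1 and Timd2, neighbours on chromosome 11 that encode cell-surface proteins of the TIM family, rose 137-fold and 56.8-fold. Gpr50, an X-linked gene of the melatonin receptor family, went from 0.338, 0.393 and 0.379 CPM to 95.3, 86.96 and 119 CPM. Genes whose replicates overlapped between the days were left out when the 12 were chosen.

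The 12 largest falls among such genes were those of Fgf4, Anxa8, Grhl3, Fam81a, Khdc3, Tdgf1, Jakmip1, Ass1, Sfn, Tfap2c, Cobl and Nptx2. Fgf4, the growth factor that ES cells make under Pou5f1 and Sox2, fell 52.02-fold, from 103, 101 and 94.98 CPM to 1.93, 1.73 and 2.13 CPM (log2 -5.70 ± 0.12, adjusted p = 1.91e-32). Tdgf1 (Cripto), the co-receptor for Nodal, fell 24.04-fold, from 525, 505 and 549.7 CPM to 21.8, 21.3 and 22.8 CPM. Several of the others are genes of surface epithelium: Grhl3, a grainyhead factor of the epidermal barrier, fell 27.9-fold, and Sfn (14-3-3 sigma) 15.1-fold. Khdc3, an oocyte and early embryo gene, fell 24.996-fold, and Ass1, the urea cycle enzyme that makes argininosuccinate, 15.8-fold, from 229 ± 3.72 to 14.5 ± 0.279 CPM. Cobl, an actin nucleator, went from 173 ± 9.87 to 12.1 ± 0.527 CPM.

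**Figure D2:**
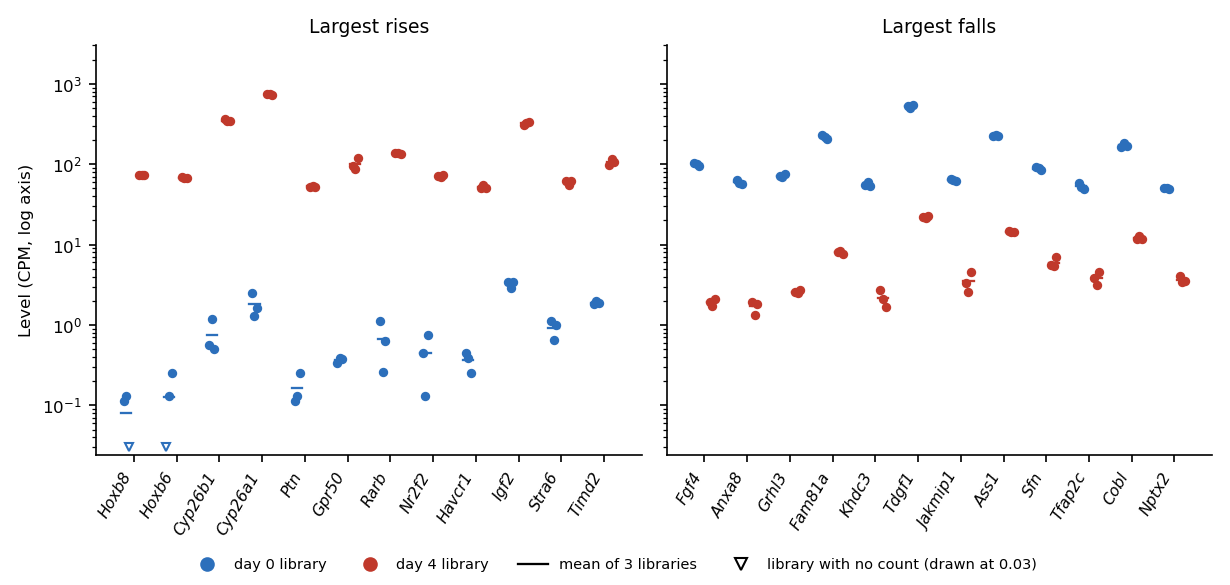
Level in each library (CPM, log axis) of the 12 genes with the largest rises (left) and the 12 with the largest falls (right), with day 0 in blue, day 4 in red and a bar at each mean of 3 libraries. Open triangles mark libraries without a count. Genes with overlapping days, or with symbols that were passed over, were not eligible. Cyp26a1 reaches 747 CPM and Fgf4 goes down to 1.93 CPM.

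Retinoid genes rose at several steps of the pathway, from uptake to breakdown. Of 17 tested genes of retinoid transport and metabolism, 12 rose and 3 fell (median log2 2.70, against 37.5% risen among all genes). For uptake and carriage, Stra6 rose 62.3-fold and Ttr (transthyretin, which carries retinol-binding protein in blood) 96.6-fold, from 0.113, 0.393 and 0.126 CPM to 21.3, 20.9 and 20.5 CPM. For synthesis, Aldh1a2, the main retinaldehyde dehydrogenase of the embryo, rose 18.5-fold, from 1.13, 1.18 and 1.14 CPM to 20.96, 21.4 and 21.96 CPM, and Aldh1a1 118-fold. Genes for making and for destroying retinoic acid were thus both higher at day 4. Aldh1a3 was at 1.31 ± 0.112 and 0.687 ± 0.267 CPM (adjusted p = 0.0566, or 0.0352 without day 4 replicate 2). Crabp1, which binds retinoic acid in the cytoplasm, fell 1.81-fold, and Fabp5, which can carry it to other receptors, 3.64-fold.

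Among the 13 receptors and co-regulators, 7 rose and 5 fell. Rarb rose while the other 2 RAR genes fell: Rarg went from 95.5, 102 and 90.2 CPM to 20.5, 20.4 and 25.1 CPM (4.41-fold) and Rara from 34.4, 37.3 and 39.3 CPM to 11.5, 15.2 and 14.7 CPM (2.69-fold). Rxra, a partner of RARs on DNA, rose 1.85-fold. Nrip1 (RIP140), a co-repressor recruited by ligand-bound receptors, rose 4.22-fold, and the co-repressor Ncor1 fell 1.43-fold. The COUP-TF genes Nr2f2 and Nr2f1, orphan receptors that bind the same kind of repeat, rose 153-fold and 94.9-fold. Stra8, named for its induction by retinoic acid and needed for entry into meiosis, rose 9.95-fold, from 183, 176 and 172 CPM to 1706, 1839 and 1743 CPM, and was past its level of day 2 (2986 ± 47.8 CPM; day 4 against day 2 log2 -0.76 ± 0.04, adjusted p = 1.76e-17).

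Hox genes rose in all 4 clusters. Those that rose lay in paralogue groups 1 to 10, and none of groups 11 to 13 rose, a boundary chosen after the values were seen. In HoxB 9 of 10 tested genes rose and none fell (median log2 7.27, or 6.92 with genes without a count set to their bound); in HoxA 9 of 11, in HoxC 6 of 8 and in HoxD 5 of 6 rose. Hoxb5 was without counts at day 0 and had 520 at day 4. Set against a floor of 3 counts for all day 0 libraries together, it was at least 152-fold higher. Hoxb1, the hindbrain gene at the early end of its cluster, had 2 counts at day 0 and 7.15, 10.5 and 9.78 CPM at day 4. In HoxA, Hoxa5 rose 26.01-fold, from 1.804, 1.57 and 1.52 CPM to 42.2, 41.03 and 46.2 CPM. In HoxC, Hoxc8 rose 155-fold, from 0.205 ± 0.0702 to 33.6 ± 2.002 CPM.

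The group 13 genes, the last of each cluster and used at the tail end of the embryo, were at low levels on both days. Hoxa13 was at 1.69 ± 0.294 and 1.43 ± 0.188 CPM (adjusted p = 0.531) and Hoxb13 at 4.56 ± 0.892 and 4.68 ± 0.363 CPM (adjusted p = 0.938). Hoxc13 fell 5.03-fold and Hoxd13 2.001-fold, to 1.21 ± 0.301 CPM. Hoxc12, at 1.47, 1.18 and 2.27 CPM on day 0, had no counts on day 4 and was by the same floor at least 15.2-fold lower. The strand setting of the counting is not given in the sources used here, so reads of Hox genes and of their antisense transcripts cannot be told apart.

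**Figure D3:**
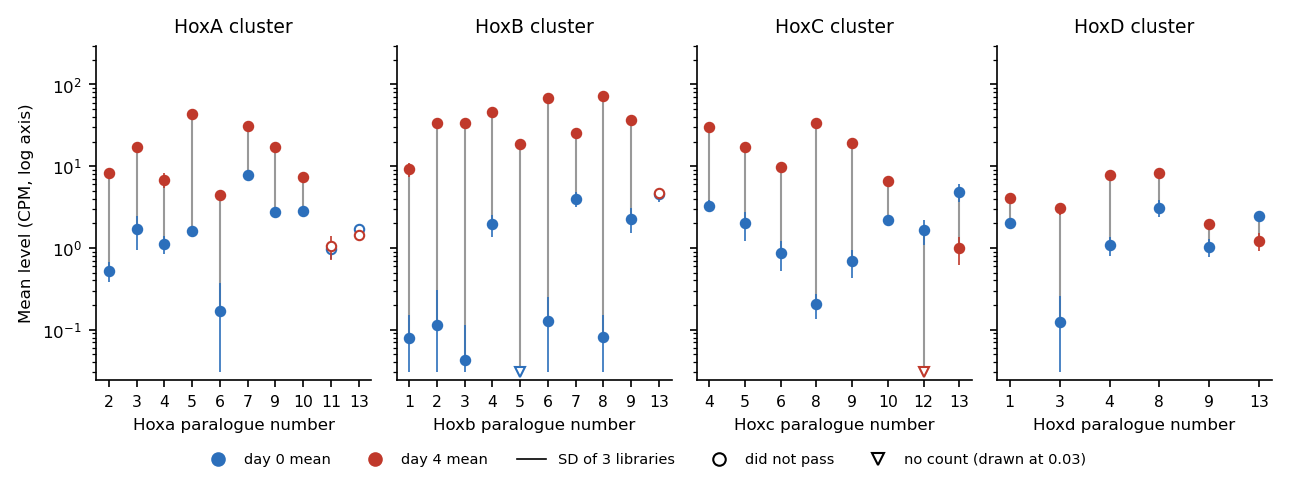
Mean level (CPM, log axis) of the Hox genes drawn, at day 0 (blue) and day 4 (red) by paralogue number within its cluster, with SD of 3 libraries; open circles did not pass and triangles mark days without a count. The vertical distance is largest in the HoxB cluster, while Hoxa11, Hoxa13 and Hoxb13 did not pass and Hoxc12, Hoxc13 and Hoxd13 are lower at day 4. Levels of different genes are not corrected for length.

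Most genes of the TALE homeobox class rose as well. The class holds the Meis, Pbx and Pknox genes, whose products bind DNA together with Hox proteins, and also Irx and Tgif genes. Of 15 TALE genes of all these kinds, 12 rose and 3 fell (median log2 1.45). Meis1 rose 21.7-fold, from 3.61, 3.93 and 2.905 CPM to 77.2, 75.5 and 74.8 CPM, and Meis2 10.2-fold, from 20.98, 23.6 and 19.7 CPM to 208, 226 and 222 CPM. Tgif1, a repressor of the same class that limits retinoid and TGF-beta responses, fell 2.303-fold. Other developmental families leaned the same way: 11 of 15 SOX genes, 14 of 22 forkhead genes and 6 of 7 GATA genes and cofactors rose. In contrast, 7 of 10 T-box genes and 11 of 17 KLF and SP genes fell. Tbx2 and Tbx18 were the T-box genes that rose, Tbx2 by 53.99-fold from 0.226, 0.655 and 0.505 CPM to 26.3, 25.9 and 22.1 CPM, while T (brachyury, of the primitive streak) was among those that fell. Sox15, an ES cell SOX gene, fell 18.4-fold.

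Genes of the undifferentiated state fell, to different depths. Of 16 core pluripotency genes, 14 fell, Lin28a rose and Dppa2 did not pass (median log2 -2.89), and of 16 naive genes 14 fell, Gbx2 rose and Manba did not pass. Nanog went from 278, 272 and 275 CPM to 23.1, 23.2 and 19.98 CPM, Sox2 from 718, 724 and 703 CPM to 125, 123 and 126 CPM (5.73-fold) and Pou5f1 from 1469.9, 1506 and 1419 CPM to 358, 357 and 339 CPM (4.17-fold). Utf1, a chromatin factor of ES cells, fell 16.8-fold, and Prdm14, a regulator that supports the naive state and founds germ cells, 12.9-fold. Tcl1, an activator of AKT, fell 45.7-fold, to 0.5796, 0.575 and 0.283 CPM. At the other end Tbx3 fell only 1.097-fold, a call that was lost with DESeq2 (adjusted p = 0.0563) and without day 0 replicate 1 (0.199), day 4 replicate 1 (0.0654) or day 4 replicate 2 (0.0856), and Dppa2 was at 69.3 ± 1.39 and 68.2 ± 5.796 CPM (adjusted p = 0.706). At day 4 the best known of these genes were still counted in number: Pou5f1 stood at 351 CPM and Zfp42 (Rex1) at 147 ± 2.35 CPM, down from 913 ± 19.3 CPM.

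The genes that mark the next step of the epiblast did not rise as a group. Of 15 formative and primed genes, 5 rose and 9 fell. Otx2, the factor that brings about the formative state, fell 24.3-fold, from 26.95, 27.4 and 25.1 CPM to 1.45, 0.959 and 0.708 CPM, and Fgf5, the usual marker of primed epiblast, was at 3 counts against 32, a CPM ratio of 9.35 (95% counting interval 2.93 to 47.7). Among Nodal and activin genes, Nodal fell 9.26-fold, its feedback inhibitor Lefty2 10.1-fold, the activin subunit Inhbb 16.9-fold and the nuclear partner Foxh1 4.91-fold. The activin antagonist Fst (follistatin) rose 4.36-fold. The receptor Acvr2a and the transducer Smad3 rose 1.92-fold and 1.95-fold.

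Most genes of the LIF pathway fell. Of 13 genes, 10 fell and 2 rose. Those that rose were the receptor subunit Il6st (gp130), 1.32-fold, and the kinase Jak2, 2.94-fold; Jak1 was at 63.9 ± 0.5898 and 65.4 ± 2.77 CPM (adjusted p = 0.648). The genes of the LIF receptor and of STAT3 were among those that fell, as were genes known to respond to STAT3: Socs3 from 126, 131 and 129.8 CPM to 11.8, 9.87 and 11.1 CPM (11.8-fold), Icam1 7.33-fold, Pim3 4.99-fold and Pim1 3.95-fold. Socs3 had been lower still at day 2 (4.42 ± 1.28 CPM) and was higher at day 6 (25.4 ± 0.776 CPM, log2 1.22 ± 0.10 against day 4, adjusted p = 7.79e-13). At day 6 11 of the 13 were higher than at day 4 and 1 was lower, where 23.6% of all genes were higher and 19.3% lower.

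Basement membrane genes changed in both directions, with collagen IV among those that rose. Col4a1 and Col4a2, neighbouring genes for the paired chains of collagen IV, rose 7.27-fold and 8.17-fold; Col4a1 was at 479.8, 458 and 454 CPM and then at 3342, 3386 and 3392 CPM. Sparc, a matrix protein that binds collagen IV, went from 315, 309 and 314 CPM to 2698, 2651 and 2656 CPM (8.54-fold), and Serpinh1 (HSP47, the collagen chaperone) from 111, 119 and 112 CPM to 1380.4, 1276 and 1278 CPM (11.5-fold). Laminin chains changed in both directions. Lama1 and Lamb1, of the embryonic laminin 111, rose 4.89-fold and 4.38-fold, and Lamb3, a chain of the epithelial laminin 332, fell 16.1-fold, as did Lama5 (2.59-fold). Of all 25 genes of the basement membrane list, 15 rose and 7 fell, the fallen ones including Nid1 (1.98-fold) and Hspg2 (perlecan, 1.87-fold).

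Of 29 collagen genes, with those of collagen IV among them, 16 rose and 6 fell. The collagen genes named here from outside the basement membrane were at low levels. Col3a1 rose 14.3-fold to 8.96 ± 0.155 CPM and Col1a2 7.78-fold to 14.8 ± 0.389 CPM, while Col1a1 was at 5.88 ± 1.17 and 6.89 ± 2.23 CPM (adjusted p = 0.366, or 0.0243 without day 4 replicate 2). Other matrix genes rose in 23 of 38 cases, among them Adamts1, a matrix protease (16.9-fold), and Svep1, a large adhesion protein without counts at day 0 and at 13.5 ± 0.375 CPM at day 4. Fn1 (fibronectin) fell 3.83-fold, from 1417, 1425 and 1401 CPM to 355, 372 and 380.1 CPM. These genes are also made by feeder fibroblasts. Of 17 fibroblast and feeder markers tested, 7 rose and 8 fell, where 37.5% and 36.1% of all genes did. The summed level of the list was 1577 to 1602 CPM at day 0 and 609 to 633 CPM at day 4, most of it Fn1. Thy1 fell 14.4-fold, and Dcn, S100a4, Fap, Mmp3, Dpt and Col6a3 were too low to test. The part of feeder cells in the matrix changes was not tested.

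Adhesion and the cytoskeleton shifted between related genes. Cdh1 (E-cadherin) fell 2.53-fold, from 465, 479.6 and 462 CPM to 185, 181 and 191 CPM, and Cdh2 (N-cadherin) rose 13.1-fold, from 1.92, 2.36 and 1.77 CPM to 25.3, 27.2 and 26.9 CPM. Cdh3 (P-cadherin) fell 6.44-fold and Cdh6 rose 12.7-fold. Of 20 genes of cadherins and epithelial to mesenchymal transition, 12 rose, among them Zeb2 (12.99-fold) and Twist1 (6.15-fold), and 7 fell, among them Esrp1, a splicing regulator of epithelia (4.17-fold). Epithelial genes did not all fall. Of 24 keratin and junction genes 14 fell and 8 rose. The simple keratins Krt8 and Krt18 rose 5.996-fold and 6.84-fold, and Krt18 reached 151, 159 and 143 CPM from 20.5, 22.3 and 23.6 CPM, while the junction genes Tjp3 and Nectin4 fell 6.77-fold and 20.1-fold. Of 18 integrin genes 8 rose and 6 fell, where 37.5% and 36.1% of all genes did. Itgb7, Itgb4 and Itga6 fell 9.69-fold, 5.85-fold and 2.66-fold, and Itgb1, the common beta chain, rose 1.62-fold.

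Contractile genes of smooth muscle were higher in part. Acta2 (smooth muscle actin) had 2 counts at day 0 and 20.9, 18.9 and 17.001 CPM at day 4, Tagln (transgelin) went from 3.95, 3.67 and 3.79 CPM to 86.5, 84.5 and 98.2 CPM (23.4-fold) and Myl9 rose 40.98-fold. Of the 17 genes of the list 10 rose and 3 fell. All 17 were higher at day 6 than at day 4 (23.6% of all genes were), with Acta2 then at 63.1 ± 5.46 CPM. In the cardiac and skeletal muscle list 5 of 14 rose, a share near the 37.5% of all genes. Its Actc1 (cardiac actin) was at least 33.3-fold higher, at 4.004 ± 0.824 CPM, and Myh6 (cardiac myosin) was at 5.02 ± 1.07 and 4.22 ± 0.897 CPM (adjusted p = 0.214).

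**Figure D4:**
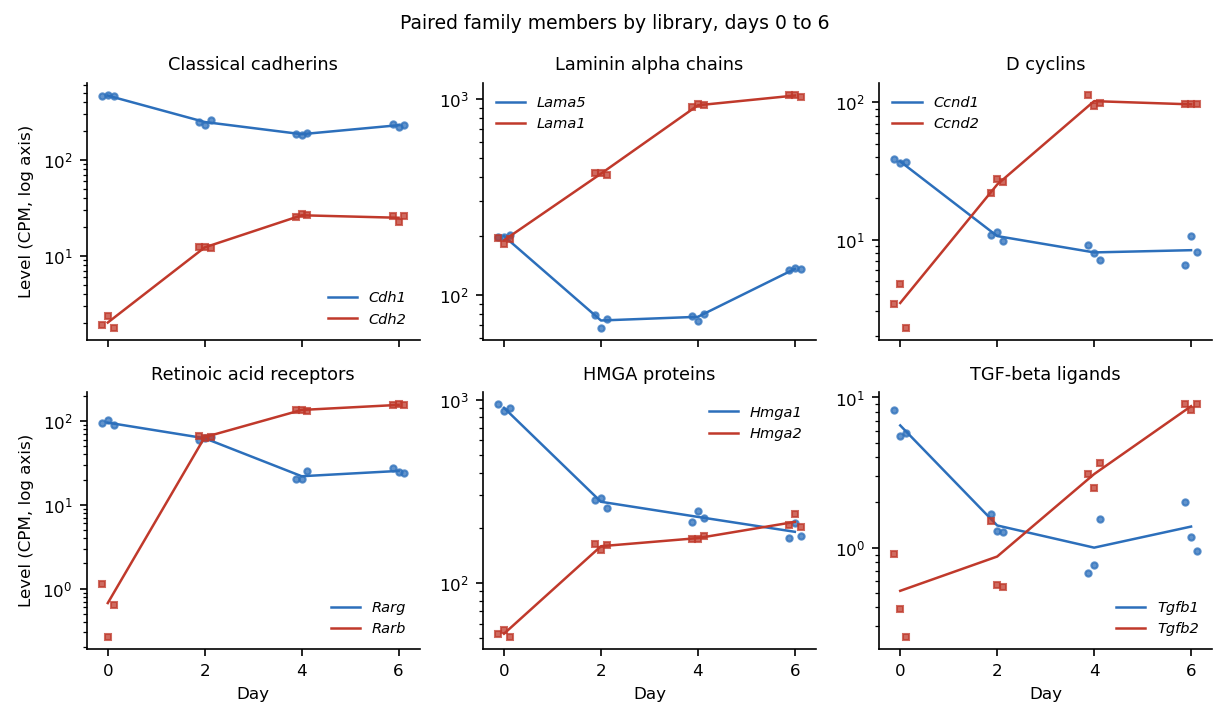
Level in each library (CPM, log axis) over days 0, 2, 4 and 6 for 6 pairs of related genes, with lines through the means of 3 libraries; in each panel the gene drawn in blue fell and the gene drawn in red rose between days 0 and 4. Cdh1 and Cdh2, and Rarg and Rarb, move in opposite directions, and Lama5 is higher again at day 6. Levels of the 2 genes in a panel are not corrected for length.

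All tested regulators, receptors and matrix genes of the extraembryonic endoderm list rose. This layer, the primitive endoderm and its visceral and parietal derivatives, lies next to the epiblast, lays down basement membrane and takes up maternal protein. The list held 20 genes (median log2 2.58). Gata6 and Gata4 rose 3.95-fold and 3.47-fold, Gata6 from 16.1, 18.2 and 18.9 CPM to 67.1, 71.7 and 71.4 CPM, Sox7 11.2-fold and Sox17 3.47-fold. Foxa2, of visceral and definitive endoderm, rose 25.7-fold, from 0.564, 0.917 and 1.14 CPM to 22.5, 23.7 and 20.7 CPM. The endocytic receptor gene Cubn (cubilin) rose 15.1-fold and Dab2, an adaptor for uptake by such receptors, 9.05-fold, from 60.1, 60.9 and 56.2 CPM to 543, 536 and 525 CPM. Plat (tissue plasminogen activator, made by parietal endoderm) rose 35.8-fold.

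Most genes for secreted products of visceral endoderm rose. Of 17 genes, 13 rose and 4 fell. Afp (alpha-fetoprotein) had 2 counts at day 0 and was at 10.6, 8.82 and 11.1 CPM at day 4, Apoa1 rose 30.6-fold to 30.6 ± 1.67 CPM and Fgb (fibrinogen beta) 51.9-fold to 15.5 ± 0.0582 CPM. Apoe, which ES cells make in quantity, fell 2.02-fold, from 949.6 ± 17.4 to 470.3 ± 13.996 CPM, and Trf (transferrin) 2.97-fold. Lysosomal and endocytic genes, which process what cells take up, rose in 23 of 29 cases (median log2 0.80), where 37.5% of all genes did. The largest among them were Ctsc, a cathepsin, up 9.25-fold, Cd63 up 4.86-fold and Lamp2 up 4.42-fold, while Tfeb, the factor that controls many lysosomal genes, fell 3.66-fold.

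Mesoderm regulators rose in 22 of 29 cases (median log2 2.62). Meox1, a homeobox gene of somites, rose 55.4-fold, from 1.804, 2.49 and 2.02 CPM to 116, 116 and 118 CPM, and Foxf1, of lateral plate mesoderm, 48.6-fold, from 0.226, 0.524 and 0 CPM to 12.2, 12.9 and 12.5 CPM. Wt1, of kidney and coelomic lining, had 2 counts at day 0 and 12.4, 9.78 and 10.2 CPM at day 4. Osr1, of intermediate mesoderm, stood at 6.18, 6.14 and 6.38 CPM at day 4 after none at day 0, which makes it at least 50.6-fold higher. Among those that fell, Tcf15 fell 8.01-fold, Hand1 7.28-fold and Mesp2 3.44-fold. Mesp1, Tbx6 and Msgn1, which mark the streak and presomitic mesoderm, were too low to test.

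Neural regulators rose and neuronal structural genes did not as a group. Of 19 neural progenitor genes 14 rose and 2 fell. Pax6 rose 14.9-fold, from 0.789, 2.62 and 2.02 CPM to 23.9, 28.1 and 27.9 CPM, Irx3 5.004-fold and Sox3 6.23-fold, while Sox1 was at 12.7 ± 0.579 and 12.6 ± 1.41 CPM (adjusted p = 0.865). The proneural gene Neurog2, without counts at day 0, reached 3.77, 3.36 and 2.55 CPM and was thus at least 26.9-fold higher. Of 22 neuronal genes, 8 rose and 8 fell, a split near that of all genes. Stmn2 (stathmin 2), which the ES cells expressed, fell 12.5-fold, from 118, 122 and 120.4 CPM to 8.98, 9.87 and 10.1 CPM, and Mapt (tau) and Tubb3 8.72-fold and 3.86-fold. Dcx (doublecortin, of migrating neurons) had no count at day 0 and was at 1.37 ± 0.202 CPM at day 4.

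Genes of the neural crest, the migratory cells that leave the dorsal neural tube, rose in 8 of 11 cases. Sox9, which also acts in cartilage and endoderm, rose 12.1-fold, from 0.789, 1.31 and 0.884 CPM to 13.04, 10.7 and 12.6 CPM, and Ednrb, an endothelin receptor gene, 29.5-fold, from 0.338, 0.131 and 0.126 CPM to 5.89, 6.81 and 6.52 CPM. Foxd3, an early crest factor that ES cells also need, fell 6.18-fold, and Ngfr, the low-affinity nerve growth factor receptor, 6.59-fold. Sox10 and Tfap2b, which mark established crest, were too low to test.

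Guidance molecules changed within families. Semaphorins and plexins rose in 12 and fell in 12 of 28 cases, where 37.5% and 36.1% of all genes did. The 2 neuropilins, co-receptors for class 3 semaphorins and VEGF, went in opposite directions: Nrp1 rose 21.3-fold, from 0.789, 0.655 and 1.14 CPM to 16.8, 18.2 and 21.4 CPM, and Nrp2 fell 4.03-fold, from 46.8, 50.7 and 45.2 CPM to 12.5, 10.9 and 12.04 CPM. Plxna2 rose 22.1-fold and Sema6d 21.5-fold. Of 17 ephrin and Eph receptor genes 10 rose and 6 fell, with ligands and receptors on both sides. The receptors Epha2 and Epha4 fell 4.05-fold and 2.72-fold and the ligand Efna3 4.85-fold, while the receptor Epha7 rose 2.34-fold and the ligands Efnb1 and Efna5 3.23-fold and 6.59-fold. Robo1 fell 1.93-fold and Robo2 rose 26.02-fold, both receptors for Slit.

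Among BMP genes, ligands changed in both directions and the Id genes rose. Bmp4, which ES cells make, fell 4.996-fold, from 23.5, 23.98 and 23.2 CPM to 5.41, 4.12 and 4.53 CPM, and Bmp2 and Bmp6 rose 4.64-fold and 2.56-fold. The Id genes, direct BMP targets that block basic helix-loop-helix factors, rose steeply: Id1 3.13-fold, Id2 from 2.93, 2.49 and 1.26 CPM to 78.4, 73.8 and 84.7 CPM (34.7-fold) and Id3 from 0.451, 0.262 and 0.505 CPM to 27.9, 22.5 and 25.2 CPM (59.8-fold). The inhibitor Smad7 fell 4.53-fold and the antagonist Chrd (chordin) 2.83-fold. Of 21 genes in all, 12 rose and 5 fell. Among TGF-beta ligands, Tgfb1 fell 6.94-fold, from 8.23, 5.503 and 5.81 CPM to 0.676, 0.767 and 1.56 CPM, and Tgfb2 rose 5.58-fold, from 0.902, 0.393 and 0.253 CPM to 3.09, 2.49 and 3.68 CPM.

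Most FGF genes fell, among them ligands and feedback genes. Of 21 genes 14 fell and 6 rose. Besides Fgf4, Fgf15 had 72 counts at day 0 and 2 at day 4 and Fgf3 48 and 2, all 3 lying together on chromosome 7. Among feedback and target genes of ERK signalling, Spry4 fell 12.7-fold, Etv4 12.2-fold and Etv5 7.78-fold, while the feedback inhibitor Spred1 was at 36.4 ± 2.48 and 33.5 ± 1.90000 CPM (adjusted p = 0.164). The receptors Fgfr2 and Fgfr3 rose 1.58-fold and 1.703-fold, as did the mesenchymal ligand Fgf10, 2.52-fold.

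Of 36 Wnt genes 18 were higher and 13 lower, with Frizzled receptors on both sides. Fzd5 fell 8.85-fold, from 73.2, 76.8 and 66.4 CPM to 8.69, 8.44 and 6.94 CPM, and Fzd9 and Fzd10 8.19-fold and 8.09-fold. Fzd4 rose 11.7-fold, from 4.399, 4.45 and 3.54 CPM to 53.4, 43.7 and 49.2 CPM. The non-canonical ligand Wnt5a rose 28.2-fold, from 0.338, 0.524 and 0.253 CPM to 9.76, 11.4 and 11.2 CPM, together with its receptor Ror1, 32.1-fold. Of the secreted inhibitors, Sfrp5 was up 29.1-fold, Frzb up 43.6-fold and Notum down 6.52-fold. Axin2, a target used to read canonical signalling, was at 7.59 ± 0.649 and 9.04 ± 0.888 CPM (adjusted p = 0.0912).

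Receptor tyrosine kinases and their ligands rose in 8 and fell in 9 of 22 cases, a split near that of all genes (37.5% and 36.1%). Kit, the stem cell factor receptor, fell 2.59-fold, from 111, 108 and 109 CPM to 44.4, 41.8 and 40.2 CPM. The platelet-derived growth factor receptor Pdgfra, a marker of primitive endoderm and mesoderm, rose 3.72-fold, from 33.3, 35.9 and 32.6 CPM to 127, 129 and 122 CPM, while its ligand Pdgfa fell 3.53-fold, from 20.6, 19.4 and 18.7 CPM to 6.67, 4.03 and 6.09 CPM. Pdgfra and Pdgfa therefore went in opposite directions.

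In the Hedgehog list 10 of 14 genes rose. Shh had 1 count at day 0 and 6.86, 7.86 and 7.23 CPM at day 4, a CPM ratio of 179 (95% counting interval 31.8 to 7101), and Ihh, of visceral endoderm, rose 12.9-fold from 0.451, 0.262 and 0.632 CPM to 6.47, 4.89 and 6.8004 CPM. Gas1, a co-receptor, rose 48.5-fold, from 2.71, 2.75 and 2.15 CPM to 130.4, 119 and 121 CPM. The transcriptional mediators Gli1 and Gli2 fell 2.79-fold and 4.46-fold, while Gli3 rose 2.53-fold. In the Notch list the ligand Dll1 rose 8.37-fold, while Notch4 and the feedback gene Nrarp fell 12.5-fold and 3.06-fold and Hes1 was at 26.2 ± 2.47 and 24.9 ± 1.86 CPM (adjusted p = 0.569). Among YAP and TEAD targets 10 of 15 rose, with Amotl2 up 3.47-fold to 215 ± 5.16 CPM.

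Genes of the insulin-like growth factor axis rose in 10 of 17 cases, and most imprinted genes tested rose. Igf1 rose 50.6-fold, from 0.451, 0.262 and 0.379 CPM to 18.3, 18.7 and 21.4 CPM, and Igfbp5 51.1-fold, while Igfbp2, a binding protein abundant in ES cells, fell 5.37-fold, from 802 ± 20.05 to 149 ± 2.64 CPM. Of 24 genes known to be expressed from the paternal copy 18 rose, and of 17 maternally expressed ones 12 rose. Among the first, Plagl1 (Zac1) went from 22.7, 21.6 and 21.7 CPM to 345, 384 and 493 CPM (18.4-fold), Peg3 from 75.1, 73.9 and 77.4 CPM to 1498, 1503 and 1557 CPM (20.1-fold) and Dlk1 rose 50.8-fold. Among the second, H19, the noncoding neighbour of Igf2, went from 5.301, 5.896 and 7.58 CPM to 155, 163 and 158 CPM (25.4-fold), Meg3 rose 5.17-fold and Rian 4.67-fold. Both partners of the Igf2 and H19 pair and of the Dlk1 and Meg3 pair were therefore higher, though they are known to be used from opposite parental copies; the counts do not separate alleles. Snrpn and Kcnq1ot1 were at 93.1 ± 6.01 and 12.99 ± 1.45 CPM at day 0 and 87.7 ± 5.402 and 13.1 ± 1.61 CPM at day 4 and did not pass.

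Genes of the 2-cell embryo, which flicker on in a small share of ES cells, were higher. All 19 tested rose (median log2 3.27), and 18 of them were lower again at day 6 than at day 4 (19.3% of all genes were). Against day 2, 8 were already lower at day 4 and 2 higher (24.8% and 25.3% of all genes were). Zscan4d went from 4.85, 4.98 and 5.43 CPM to 105, 106 and 107 CPM and was at 26.6 ± 0.207 CPM at day 6. Zscan4e rose 24.1-fold and Zscan4b 19.8-fold. Copies within these families are nearly identical, and how the counting shared reads among them is not known, which leaves each single value uncertain. In the germline list of 28 genes, 19 rose, among them Dazl, an RNA-binding protein gene of germ cells (7.89-fold), and the meiotic genes Sycp2 (11.7-fold) and Rec8 (6.77-fold). The regulators Prdm1 and Tfap2c, which set up primordial germ cells, fell 2.37-fold and 14.2-fold.

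NuRD, a nucleosome remodelling deacetylase, and sites of the insulator protein CTCF are named in the title of the series. The 15 subunit genes of NuRD split much as all genes did, with 7 higher, 6 lower and 2 that did not pass. The remodeller Chd4 was at 841, 829.6 and 857 CPM and at 834, 883 and 922 CPM (log2 0.06 ± 0.05, adjusted p = 0.221). Mbd3, of the ES cell complex, rose 1.2995-fold, and Mbd2, its methyl-DNA binding alternative, 3.04-fold, from 22.1, 23.5 and 22.6 CPM to 66.6, 74.6 and 65.6 CPM. Rbbp7, a histone chaperone subunit, rose 2.50000-fold, Hdac2 rose 1.21-fold and Hdac1 fell 1.69-fold. Ctcf was at 206, 188 and 198 CPM and at 210.0, 211 and 205 CPM (log2 0.08 ± 0.04, adjusted p = 0.105), and the cohesin genes Rad21 and Smc3 fell 1.35-fold and 1.66-fold. Of 18 genes of CTCF, cohesin and cohesin loading, 6 rose and 8 fell, where 37.5% and 36.1% of all genes did. Chd4 and Ctcf passed, at log2 0.188 and 0.208, where library size alone was the scaling. Ctcfl, the germline paralogue of CTCF, rose 4.26-fold, from 4.29, 3.54 and 2.905 CPM to 16.6, 13.7 and 16.01 CPM.

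Other chromatin genes changed in both directions, often within pairs of paralogues. Among 30 Polycomb genes 18 fell and 10 rose. Phc1, of the ES cell complex, fell 5.48-fold, Jarid2, which recruits PRC2, 2.58-fold, and Suz12, a core subunit, 2.14-fold. Phc2, Bmi1 and Cbx8, subunits of PRC1, rose 3.46-fold, 3.27-fold and 7.13-fold. In BAF remodellers Smarca4 (Brg1), the ATPase of the ES cell complex, fell 1.72-fold and its alternative Smarca2 (Brm) rose 3.26-fold. Of 14 DNA methylation genes 10 fell, with Tet1, an enzyme of demethylation, down 11.4-fold from 256, 255 and 259 CPM to 22.7, 19.8 and 26.2 CPM, Dnmt1 1.84-fold and Dnmt3b 1.84-fold. Hmga1 fell 3.94-fold and Hmga2, a let-7 target, rose 3.32-fold.

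Several lists of growth and metabolism had mostly fallen genes. Of 80 cytosolic ribosomal protein genes, 71 fell by a modest amount (median log2 -0.50), and of 25 Myc family and nucleolar genes 20 fell, with Mycn down 2.27-fold. Mxd4, an antagonist of Myc, was the 1 that rose, 4.57-fold. Glycolytic and hypoxia genes fell in 25 of 29 cases, led by Pfkp (6.48-fold) and Pdk1 (5.78-fold), and Ldhb went from 350.1, 358 and 380.2 CPM to 71.9, 69.2 and 69.3 CPM (5.17-fold). Amino acid genes fell in 15 of 21 cases, among them the transporter Slc7a5 (3.75-fold). Replication genes fell in 20 of 27 and mitotic genes in 18 of 22 cases, with Rrm2 down 2.44-fold and Cenpf 2.46-fold. The median log2 difference was -0.41 for replication and -0.58 for mitosis.

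Respiratory chain genes of the nucleus and of the mitochondrion did not move as 1 group. Of 46 nuclear genes 24 fell and 10 rose, while of 13 mitochondrial genes 4 fell and 5 rose. Of all genes 36.1% fell and 37.5% rose, a split near that of the mitochondrial genes. mt-Nd1, a subunit gene of complex I, rose 1.62-fold, from 1599, 1588 and 1517 CPM to 2599, 2476 and 2543 CPM, and the nuclear Cox6a1, of complex IV, fell 2.08-fold, from 677, 665 and 645 CPM to 312, 335 and 306 CPM. Heat shock chaperone genes fell in 10 of 15 cases. Among them Hsp90aa1, the inducible form of HSP90, fell 3.37-fold, from 5662, 5461 and 5790.2 CPM to 1679, 1703 and 1643 CPM, and the small chaperones Hspb8 and Hspb1 7.89-fold and 3.603-fold.

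Cyclin D genes changed in opposite directions. Ccnd2 (cyclin D2) rose 29.6-fold, from 3.38, 4.72 and 2.27 CPM to 114, 93.9 and 98.5 CPM, while Ccnd1 fell 4.54-fold, from 38.3, 36.4 and 36.5 CPM to 9.08, 8.05 and 7.08 CPM, and Ccnd3 3.74-fold. The inhibitor Cdkn1c (p57, an imprinted gene) rose 10.3-fold, whereas Cdkn1a (p21, a p53 target) fell 4.57-fold. Of 26 p53 family and target genes 17 fell, Trp53 itself 2.69-fold, from 95.4, 107 and 101 CPM to 36.4, 37.97 and 38.5 CPM. Its family member Trp73 fell 55.5-fold.

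Fewer genes separated day 4 from either neighbouring day than from day 0. From day 2 to day 4, 8245 genes changed (50.1%), 4167 higher (25.3%) and 4078 lower (24.8%), with 988 (6.00%) higher and 558 (3.39%) lower at least 2-fold. From day 4 to day 6, 7065 changed (42.9%), 3893 higher (23.6%) and 3172 lower (19.3%), with 505 (3.07%) and 419 (2.54%) at least 2-fold. The comparisons share the day 4 libraries, so their values are given side by side. Genes picked for standing highest at day 4 against both neighbours were Meox1, Nepn, Trappc6b and Cenpl. Meox1 was at 30.2 ± 1.39, 116 ± 1.11 and 54.8 ± 3.55 CPM on days 2, 4 and 6. Nepn (nephrocan, of endoderm and early foregut) was at 0.343 ± 0.237, 13.4 ± 0.504 and 5.78 ± 0.461 CPM. Those standing lowest included Pycr1, Ndrg2 and Emp1, with Pycr1, an enzyme of proline synthesis, at 9.21 ± 0.448, 3.44 ± 0.656 and 5.898 ± 0.736 CPM. As these genes were chosen for this pattern, it is a description.

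Some groups had turned between the neighbouring days. Some HoxB genes had turned by day 4, when 5 of 10 were lower than at day 2 and 1 was higher (24.8% and 25.3% of all genes). At day 6, 8 of 10 were lower than at day 4 and 1 was higher, while Hoxb1 was at 26.9 ± 1.62, 9.16 ± 1.78 and 3.66 ± 0.909 CPM on days 2, 4 and 6. Sterol synthesis genes had risen in 19 and fallen in 3 of 24 cases at day 2 (68.1% of all genes changed by then, 34.9% higher and 33.2% lower), and were lower at day 4 than at day 2 in 22 and higher in 1; against day 0 they stood lower in 17 cases at day 4. Pmvk, a kinase of the mevalonate pathway, was down 3.04-fold from day 0. Other genes kept going in 1 direction: Igf2 was at 3.23 ± 0.297, 28.8 ± 0.106, 323 ± 11.5 and 955 ± 40.7 CPM over the 4 days, and Fgf4 at 99.6 ± 4.19, 6.38 ± 1.61, 1.93 ± 0.1998 and 0.7304 ± 0.123 CPM. Tdgf1 did not, at 12.2 ± 0.582 CPM on day 2 and 50.3 ± 2.18 CPM on day 6, with day 4 above day 2 (log2 0.84 ± 0.08, adjusted p = 5.39e-11).

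**Figure D5:**
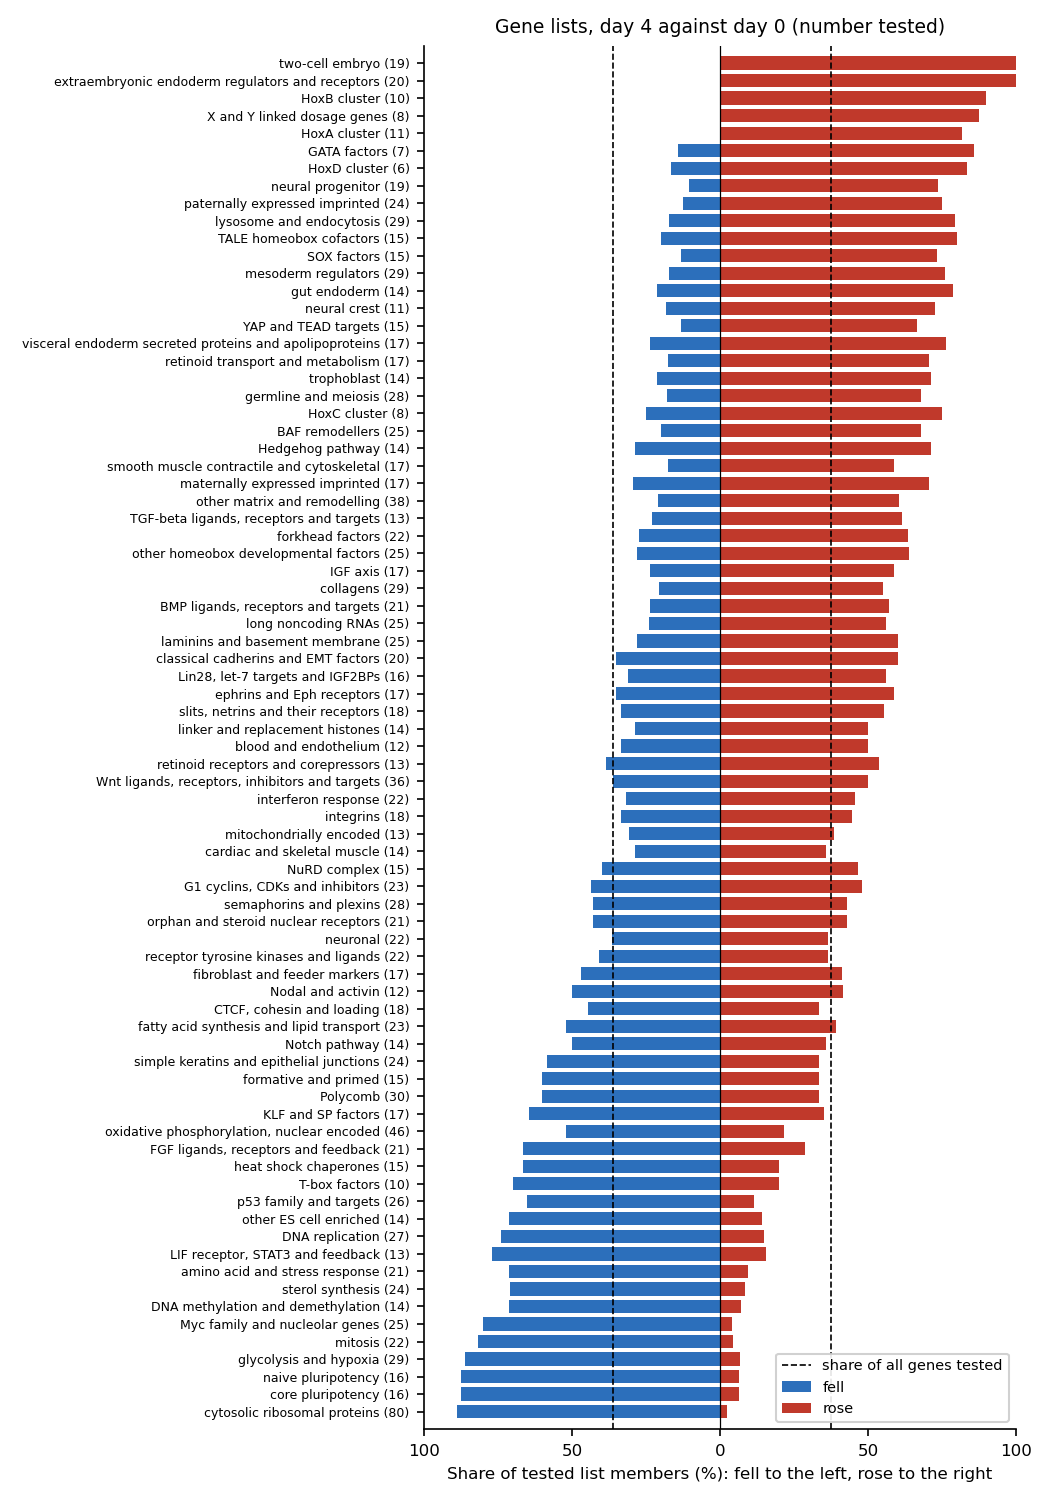
Share of the tested members of each gene list that rose (right, red) or fell (left, blue) from day 0 to day 4, with the number tested in brackets and dashed lines at the shares of all genes tested (37.5% higher, 36.1% lower). Extraembryonic endoderm, 2-cell and Hox lists lie at the top, and ribosomal protein, pluripotency and glycolysis lists at the bottom.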

How the data were processed

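RNA was extracted with the MiniBEST kit and libraries were made from polyadenylated RNA with the SMARTER mRNA-Seq kit, per the labels' protocols. The authors deposited raw counts per gene made with featureCounts 2.0.1; the submitters' processing notes also name HISAT2 2.1.0, FastQC 0.11.7, DESeq2 and mm10. The strand setting and annotation release are not given in the sources used here; 55154 of 55335 gene IDs are in GENCODE M21, whose GRCm38 coordinates are given.

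All 12 libraries were fitted with edgeR 4.0.16 (TMM, filterByExpr, robust quasi-likelihood, 1 coefficient per day) with Benjamini-Hochberg adjustment over all genes tested, so the spread was shared by the 4 days. A log2 difference is given ± SE. Genes with no count on a day have a bound against 3 counts summed over that day; those with 1 to 3 have a CPM ratio with an exact 95% counting interval. For counts simulated from these libraries for day 4 against day 0 over 15139 genes, the test called 48% of genes changed 1.25-fold, 72% at 1.5-fold, 94% at 2-fold and 100% at 4-fold, and 9 of 14939 unchanged genes. That simulation changed 50 genes at each fold, as many up as down, and none that was weakly counted at day 0. In the data 73.6% of genes changed, so these rates need not carry over. Named genes are the 12 largest rises and falls reaching 50 CPM without overlap of replicates, up to 6 rises and 6 falls and 3 genes that did not pass from each of 78 lists, 41 chosen genes, and the 4 highest and 4 lowest at day 4 against days 2 and 6. Members and lists were chosen with earlier results of these data known. Alternatives were DESeq2 1.42.0, limma-voom 3.58.1, other scalings, filters, a minimum fold, a replicate block and leaving out each library. A few genes are not reported here by name.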

Additional observations from a re-analysis of the deposited data

How the results depend on the processing

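For day 4 against day 0, requiring a fold change above 1.5 in the test left 6046 genes changed, 3252 higher and 2794 lower. DESeq2 called 11313 (5774 higher, 5539 lower), limma-voom 12048 and edgeR without a count filter 13183. A fit without the mitochondrially encoded genes and the gene Gm42418 called 12094 (6153 higher, 5941 lower). With library size alone in place of TMM the median gene shifted by 0.128 on the log2 scale and the split became 7241 higher and 5028 lower; no list described in the report changed its majority direction under this scaling, DESeq2 or median ratios. Same-numbered replicates did not pair (correlations of deviations from the day means -0.017 to 0.013), and with the replicate number as a block 12075 genes changed, 6148 higher and 5927 lower. Leaving out each of the 3 day 0 and 3 day 4 libraries in turn gave 11642 to 12019 changed genes, 5928 to 6097 higher and 5714 to 5922 lower, with 2768 to 2832 and 2192 to 2291 at least 2-fold. Leaving out each library of the 2 days compared, day 4 against day 2 gave 7391 to 7796 (3750 to 3994 higher, 3628 to 3815 lower, 973 to 1034 and 527 to 588 at least 2-fold), and day 6 against day 4 6231 to 6587 (3448 to 3694, 2756 to 2893, 503 to 528 and 421 to 453). Genes that did not pass and lie near 0 changed sign. On the log2 scale library size alone put Dppa2 at 0.101, Hes1 at 0.0667, Snrpn at 0.0389, Spred1 at 0.0158 and Sox1 at 0.106, and no filter put Dppa2 at 0.0211 and Sox1 at 0.0252. Leaving out a library gave -0.0759 to 0.0522 for Dppa2, -0.124 to 0.0100 for Hes1, -0.129 to 0.107 for Hoxb13, -0.0845 to 0.117 for Kcnq1ot1 and -0.0865 to 0.0639 for Sox1. Of 277 genes named in the text, 254 kept direction and side of the threshold in all 16 settings. No gene called in the day 4 against day 0 fit was called in the opposite direction under any of these settings. In simulated counts 48% of genes with the smallest change, and 94% with a 2-fold change, were called. Few genes changed in that simulation and none was weakly counted at day 0, so these rates need not hold for the data.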

Other observations

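Markers of 2 lineages that the report has not described changed in both directions. Of 12 blood and endothelium genes, 6 rose and 4 fell, where 37.5% and 36.1% of all genes did. Kdr, the VEGF receptor of endothelial precursors, rose 5.705-fold, from 2.93, 3.54 and 2.02 CPM to 14.6, 18.3 and 15.4 CPM, and Cdh5 (VE-cadherin) 7.99-fold, to 10.5 ± 2.31 CPM. Pecam1, an endothelial marker that ES cells also express, fell 3.34-fold, from 241 ± 6.34 to 71.9 ± 4.07 CPM. The embryonic globin genes and Ptprc (CD45, of blood cells) were too low to test. Of 14 trophoblast genes 10 rose and 3 fell, and Elf5, Ascl2, Prl3d1 and Tpbpa, which define that lineage, were too low to test; the risen ones include the simple keratins Krt8, Krt18 and Krt19, which endoderm also makes. Gata3 rose 14.3-fold, from 1.13, 0.786 and 1.01 CPM to 15.6, 11.9 and 15.4 CPM.

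Immune and noncoding genes added further differences. B2m, the light chain of MHC class I, rose 3.21-fold, from 18.2, 23.5 and 19.6 CPM to 72.2, 61.3 and 61.3 CPM, and the immunoproteasome subunit gene Psmb8 5.85-fold, while Oas1a fell 5.53-fold. The interferon list as a whole had 10 genes higher and 7 lower of 22, where 37.5% and 36.1% of all genes were. Among long noncoding RNAs, Hotairm1, from the HoxA cluster, rose 16.2-fold and the ES cell transcript Platr10 fell 22.1-fold, from 24.6, 18.1 and 19.7 CPM to 0.773, 0.767 and 1.42 CPM. Airn, which is antisense to Igf2r, rose 23.3-fold, from 0.451, 0.524 and 0.379 CPM to 10.7, 10.1 and 11.8 CPM, while Igf2r fell 1.17-fold (adjusted p = 0.0536 with library size alone as the scaling); the strand setting of the counting is not given, so reads of the overlap cannot be told apart. The metallothionein genes Mt1 and Mt2, which bind zinc, rose 2.88-fold and 3.46-fold.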
